A study of Mus musculus with 9 samples.

Results

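The genes described here are 9 lineage factors and surface markers of macrophages: the growth factor receptor Csf1r, the transcription factors Spi1, Cebpa, Cebpb and Maf, and the surface or endosomal proteins Adgre1, Itgam, Cd68 and Cd81. They were chosen by name, with earlier results of these data known, and each was read from the probe set that carries its symbol. Of the 9 genes, 8 had a probe set (1 each), out of 19505 genes with one on the array, and all 8 were among the 10042 genes bright enough to be tested. Cd68, which encodes the endosomal glycoprotein macrosialin, was not analysed here.

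RNA came from macrophages that were grown out of the bone marrow of wildtype C57BL/6 mice for 7 days in RPMI medium that held 10% serum and M-CSF, the growth factor of macrophages, stated as 10 ng/ml in one protocol text and 20 ng/ml in another. All cells, the controls included, then received 20 ng/ml interleukin 4 (IL-4) for 24 h, which drives macrophages to the state called M2. One group received vehicle, one received lipocalin 2 (LCN2), a siderophore-binding protein, on day 7 (its dose is not given in the sources used here), and one received 150 ng/ml recombinant mouse LCN2 from day 0. Each group has 3 arrays, numbered 1 to 3 in their titles, and whether these came from separate mice or cultures is not given in the sources used here. P-values here thus cover the spread among these arrays alone, and that spread may be technical. The study has no culture without IL-4 and none that differentiated without M-CSF.

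Macrophage identity is built by a small set of factors. PU.1, the product of Spi1, opens the enhancers of myeloid genes, and C/EBP alpha, encoded by Cebpa, acts with it at the step from progenitor to granulocyte-monocyte precursor. Csf1r is the receptor for M-CSF and IL-34 and keeps macrophages alive. C/EBP beta, encoded by Cebpb, takes part in inflammatory and in IL-4 responses of mouse macrophages, and Maf encodes c-MAF, a leucine-zipper factor that restrains macrophage proliferation in mice. Adgre1 encodes an adhesion G-protein-coupled receptor, the classic surface antigen of mouse macrophages, Itgam encodes CD11b, the alpha chain of complement receptor 3, and Cd81 encodes a tetraspanin, a membrane protein that organises receptors and integrins.

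The promoters of 4 of these genes are shown because their levels bear on the results below. Cebpa, Cebpb and Itgam kept the arrays numbered 1 apart from the others, as Maf, Spi1 and 35.4% of all genes tested also did. Itgam and Spi1 did not pass the test. Cd81 had the smallest p of the 8 when LCN2 from day 0 was set against vehicle. Promoters of Maf, Spi1, Adgre1 and Csf1r are not used here. Each runs from 250 bases before to 50 bases after the RefSeq start site on GRCm38.p6. Capitals mark matches on either strand to the PU.1 core GAGGAA or to the TATA box TATAAA.
Cebpa (chr7:35119043-35119342, plus strand): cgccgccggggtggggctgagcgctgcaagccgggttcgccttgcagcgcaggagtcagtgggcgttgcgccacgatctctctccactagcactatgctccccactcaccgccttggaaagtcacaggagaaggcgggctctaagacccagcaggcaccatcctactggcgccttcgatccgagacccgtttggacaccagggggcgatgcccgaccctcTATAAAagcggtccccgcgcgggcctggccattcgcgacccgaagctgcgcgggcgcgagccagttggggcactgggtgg
Cebpb (chr2:167688665-167688964, plus strand): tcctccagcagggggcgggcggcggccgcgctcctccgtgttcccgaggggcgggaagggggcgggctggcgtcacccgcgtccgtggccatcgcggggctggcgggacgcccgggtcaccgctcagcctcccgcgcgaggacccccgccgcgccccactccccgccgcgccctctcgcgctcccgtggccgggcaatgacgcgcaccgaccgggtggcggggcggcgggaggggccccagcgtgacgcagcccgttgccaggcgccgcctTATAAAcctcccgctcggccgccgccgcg
Itgam (chr7:128062390-128062689, plus strand): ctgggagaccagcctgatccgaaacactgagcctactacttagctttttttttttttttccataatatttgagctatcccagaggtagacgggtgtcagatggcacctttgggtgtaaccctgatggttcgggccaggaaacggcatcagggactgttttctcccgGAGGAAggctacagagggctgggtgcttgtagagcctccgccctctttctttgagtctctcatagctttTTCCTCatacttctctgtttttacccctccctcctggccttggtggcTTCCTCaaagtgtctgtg
Cd81 (chr7:143052500-143052799, plus strand): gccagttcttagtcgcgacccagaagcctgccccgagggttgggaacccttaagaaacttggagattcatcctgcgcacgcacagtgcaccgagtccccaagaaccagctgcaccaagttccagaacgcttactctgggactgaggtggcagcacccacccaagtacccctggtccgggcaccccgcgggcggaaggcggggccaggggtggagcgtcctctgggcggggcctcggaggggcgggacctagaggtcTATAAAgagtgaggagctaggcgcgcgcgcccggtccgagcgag
The Itgam promoter held 3 matches to the PU.1 core, beginning at positions -84, -15 and 32 from the start site, and the Cebpa, Cebpb and Cd81 promoters held 0. A match is found in 28.3% of all 32851 promoters of 300 bases. Single TATA box matches lay at -30 in Cebpa, 21 in Cebpb and 6 in Cd81, and 13.6% of all promoters have one. Neither a C/EBP motif (TTGCNNAA, 10.8% of promoters) nor a MAF core motif (TGCTGAC, 4.67%) was found in these 4 windows. The window of Cd68, not printed because the gene was not analysed, held 2 matches to the PU.1 core and 1 C/EBP match. Such letter matches describe the sequence and do not show binding.

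Array levels are log2 values on which 1 unit is a doubling, and levels of different genes cannot be set against each other. Over the 9 arrays the values ran from 2.51 to 13.49, and probe sets with a mean below 5.66 were left out as dim. This limit is the median over probe sets and not a test of presence, so counts above it sort genes only roughly. Cd4 (5.77) and Marco (5.78) lay just above it, and Cd209a (5.61) just below. Of the other macrophage surface markers with a probe set, 17 of 21 were above that limit, among them Cd14, Fcgr1 and Msr1, while Timd4, Cx3cr1, Cd163 and Vsig4, which mark resident subsets, were below it. The B cell list had 0 of 7 markers above it, NK cells 0 of 5, T cells 1 of 6 (Cd4), erythroid cells 1 of 5 (Tfrc), stroma 2 of 7, dendritic cells 3 of 12, mast cells and basophils 3 of 8 and progenitors 5 of 8. Neutrophil markers (10 of 13), monocyte markers (6 of 7), osteoclast markers (8 of 10) and cell cycle genes (19 of 19) were above it.

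**Figure D1:**
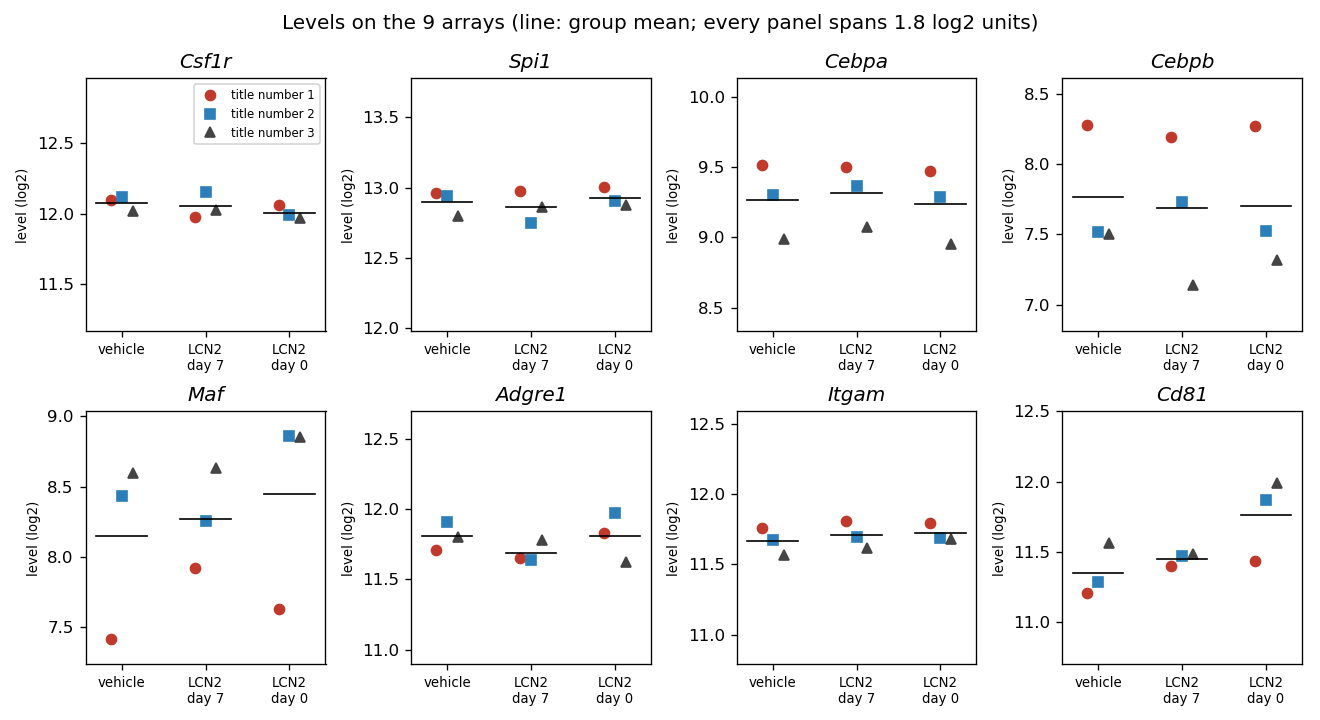
Level (log2) of the 8 genes on each of the 9 arrays by group, with the title number as symbol, the group mean as a line and the same height of axis in every panel. Csf1r stays between 11.97 and 12.16, whereas Cebpb is highest and Maf lowest on the array numbered 1 of every group.

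Csf1r, the receptor on which these cultures depend, had the narrowest spread of the 8 genes. Its levels were 12.10, 12.12 and 12.02 on vehicle arrays 1 to 3, 11.98, 12.16 and 12.02 with LCN2 from day 7, and 12.06, 11.99 and 11.97 with LCN2 from day 0. All groups overlapped. The SD over the 9 arrays was 0.066, and 2.01% of all genes tested had a smaller one, against a median SD of 0.196. The group means were ordered vehicle (12.08 ± 0.05, SD, n = 3), day 7 (12.05 ± 0.09) and day 0 (12.01 ± 0.05), and neighbours in that order did not differ beyond their spread. Against vehicle the difference was -0.023 (95% interval -0.25 to 0.20) for LCN2 from day 7 and -0.068 (-0.29 to 0.16) for LCN2 from day 0.

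Spi1 was similarly even. Its levels lay between 12.75 and 13.01, and the group means were 12.90 ± 0.09 with vehicle, 12.86 ± 0.11 with LCN2 from day 7 and 12.93 ± 0.07 from day 0 (SD, n = 3). The 3 groups overlapped, with a difference from vehicle of -0.039 (95% interval -0.28 to 0.21) for day 7 and 0.029 (-0.22 to 0.27) for day 0.

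Cebpa gave the most regular pattern. Its levels were 9.51, 9.30 and 8.99 on vehicle arrays 1, 2 and 3, 9.50, 9.37 and 9.07 with LCN2 from day 7, and 9.47, 9.29 and 8.95 with LCN2 from day 0. Arrays of the same title number thus resembled each other more than arrays of the same treatment, and in every group the array numbered 1 was highest and the array numbered 3 lowest. The group means were 9.31 ± 0.22 (day 7), 9.27 ± 0.27 (vehicle) and 9.24 ± 0.26 (day 0; SD, n = 3), none apart beyond its spread. LCN2 from day 7 differed from vehicle by 0.048 (95% interval -0.38 to 0.47) and LCN2 from day 0 by -0.030 (-0.45 to 0.39). With the title number as a block these intervals narrowed to -0.14 to 0.24 and -0.22 to 0.16.

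Cebpb followed the title number as well. It was at 8.28, 7.52 and 7.50 on vehicle arrays 1 to 3, at 8.19, 7.73 and 7.14 with LCN2 from day 7, and at 8.27, 7.52 and 7.32 with LCN2 from day 0. The 3 arrays numbered 1 lay above all 6 others. Means of 7.77 ± 0.44 with vehicle, 7.70 ± 0.50 from day 0 and 7.69 ± 0.53 from day 7 (SD, n = 3) overlapped fully. The difference from vehicle was -0.080 (95% interval -0.84 to 0.68) for day 7 and -0.064 (-0.83 to 0.70) for day 0. With the title number as a block these intervals narrowed to -0.35 to 0.19 and -0.33 to 0.21.

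Maf ran the other way. Its levels were 7.41, 8.43 and 8.59 on vehicle arrays 1 to 3, 7.93, 8.26 and 8.63 with LCN2 from day 7, and 7.63, 8.86 and 8.86 with LCN2 from day 0. The 3 arrays numbered 1 lay below all 6 others. The means were 8.45 ± 0.71 from day 0, 8.27 ± 0.35 from day 7 and 8.15 ± 0.64 with vehicle (SD, n = 3), with overlap throughout. Against vehicle, LCN2 from day 0 differed by 0.30 (95% interval -0.60 to 1.20), and by 0.22, 0.42 and 0.26 within title numbers 1, 2 and 3. LCN2 from day 7 differed by 0.13 (-0.77 to 1.03), with 0.51, -0.18 and 0.040 within the numbers, so its same-number pairs did not share a direction. With the title number as a block the intervals narrowed to -0.059 to 0.66 for day 0 and -0.24 to 0.49 for day 7.

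Among the surface markers, Adgre1 lay between 11.62 and 11.97 and Itgam between 11.57 and 11.81 on all arrays. Adgre1 averaged 11.81 ± 0.10 with vehicle, 11.69 ± 0.08 with LCN2 from day 7 and 11.81 ± 0.18 from day 0 (SD, n = 3). Its difference from vehicle was -0.12 (95% interval -0.39 to 0.16) for day 7 and 0.00035 (-0.27 to 0.28) for day 0, and the groups overlapped. Itgam averaged 11.67 ± 0.09, 11.71 ± 0.10 and 11.72 ± 0.06 in the same order, with differences of 0.039 (-0.20 to 0.28) and 0.054 (-0.19 to 0.29). Within each title number Itgam was above vehicle in both LCN2 groups, by at most 0.11.

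Cd81 had the smallest p of the 8 genes against vehicle after LCN2 from day 0. Its levels were 11.21, 11.29 and 11.57 on vehicle arrays 1 to 3, 11.40, 11.47 and 11.48 with LCN2 from day 7, and 11.44, 11.87 and 11.99 with LCN2 from day 0. The groups overlapped, because vehicle array 3 lay above array 1 of the day 0 group. The means were 11.35 ± 0.19 with vehicle, 11.45 ± 0.04 from day 7 and 11.77 ± 0.29 from day 0 (SD, n = 3). Cd81 was 0.41 ± 0.16 (SE) higher with LCN2 from day 0 than with vehicle, a 1.33-fold difference with a 95% interval of 0.049 to 0.78. This did not pass over all genes (limma, adjusted p = 0.999). The gene ranked 74 of 10042 by p, and 142 genes had an unadjusted p under 0.05. Within title numbers 1, 2 and 3 the difference was 0.23, 0.58 and 0.43, and with the number as a block its interval was 0.15 to 0.67 (adjusted p = 0.944). In that fit 497 genes (4.95%) had an unadjusted p under 0.05. LCN2 from day 7 differed from vehicle by 0.099 (-0.26 to 0.46), and the 2 LCN2 groups from each other by 0.31 (-0.050 to 0.68, adjusted p = 1).

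No member passed in a comparison between treatment groups, and neither did any other gene tested. Limma called 0 of 8 members in each of the 3 comparisons, against a background of 0% of the 10042 genes. At an unadjusted p under 0.05 it found 70, 142 and 177 genes for day 7 against vehicle, day 0 against vehicle and day 0 against day 7 (0.697%, 1.41% and 1.76%), among them 0, 1 and 0 members. With the title number as a block these were 259, 497 and 539 genes (2.58%, 4.95% and 5.37%), among them 0, 1 and 1 members. The arrays of the compared groups were fully apart for 0 of 8 members in each comparison, where the share over all genes was 3.17%, 5.49% and 5%. The first 2 comparisons share the vehicle arrays. For day 0 against vehicle, the 3 same-number pairs differed in 1 direction for 5 of 8 members (Itgam, Maf and Cd81 above vehicle, Csf1r and Cebpa below), where 27.2% of all genes did so. For day 7 against vehicle the count was 2 of 8 (Itgam above, Adgre1 below), against 21.7% of all genes. For day 0 against day 7 it was 3 of 8 (Spi1 and Cd81 higher from day 0, Cebpa lower), against 20.9% of all genes. The median difference over the members was 0.0083 for day 7 and 0.015 for day 0, beside 0.0025 and -0.015 over all genes tested.

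**Figure D2:**
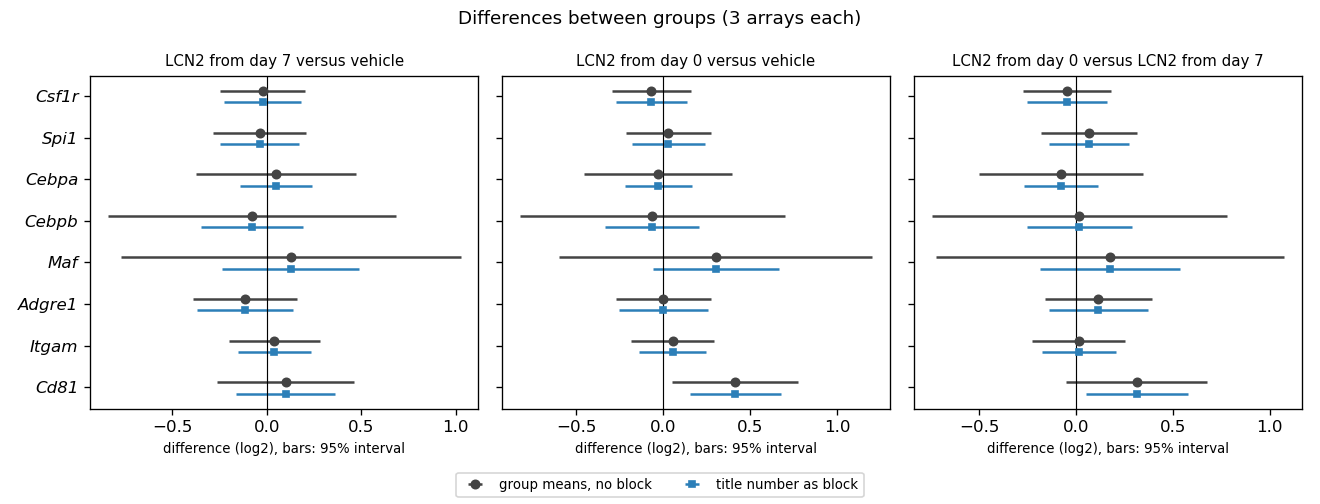
Difference in level (log2) between groups of 3 arrays for the 8 genes in the 3 comparisons, with 95% intervals from the fit of group means and from the fit with the title number as a block. Every interval spans 0 except those of Cd81 for day 0 against vehicle in both fits and for day 0 against day 7 with the block.

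The wider lists around these genes gave the same count. Of 23 other lineage transcription factors tested, 0 passed in either direction against vehicle, with medians of -0.0056 for LCN2 from day 7 and -0.0045 for day 0. Of 17 genes of CSF1 receptor signalling 0 passed, with 11 below 0 in both comparisons and medians of -0.037 and -0.11. Shc1, which encodes an adaptor of receptor tyrosine kinases, had the smallest p among those below 0 for day 0, at -0.23. Of 17 further surface markers 0 passed, with Msr1, the class A scavenger receptor, at 0.16 and Aif1, which encodes the calcium-binding protein IBA1, at -0.30 for day 0. Of 13 tetraspanins and lysosomal membrane proteins 0 passed, and Tspan3 was at -0.24 while Cd37 was at 0.20.

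Of the markers of other cell states, 0 passed in the comparisons with vehicle. For day 0 against vehicle, 7 of 8 osteoclast markers lay below 0 (median -0.54), 5 of 6 monocyte markers above 0 (median 0.16) and 8 of 10 neutrophil markers above 0 (median 0.41), while of all genes tested 5503 lay below 0 and 4539 above. For day 7 against vehicle, where Cd81 differed by 0.099, 5 of 8 osteoclast markers lay below 0 (median -0.026), 5 of 6 monocyte markers above 0 (median 0.069) and 7 of 10 neutrophil markers above 0 (median 0.33), with 4928 of all genes below 0 and 5114 above. Of 19 cell cycle genes, 16 lay above 0 for day 7 (median 0.15) and 11 for day 0 (median 0.0077). Among the osteoclast markers for day 0, Dcstamp had the smallest p of those below 0, at -0.87, and Nfatc1 was at 0.063. Mean levels of the lists were taken over all their genes with a probe set, dim ones included (10 osteoclast, 7 monocyte and 13 neutrophil markers). The mean level of the osteoclast list ran from 7.82 to 8.70 on the vehicle arrays and from 7.43 to 8.29 on the day 0 arrays. For the monocyte list these ranges were 6.37 to 7.49 and 6.61 to 7.69, and for the neutrophil list 5.98 to 7.04 and 6.30 to 7.35. The groups thus overlapped for these 3 lists. Within each title number, the osteoclast list was lower on the day 0 array than on the vehicle array, and the monocyte and neutrophil lists were higher. On the day 7 arrays the monocyte and cell cycle lists were above vehicle within each number (9.323 against 9.322 for cell cycle on number 3). The osteoclast and neutrophil lists did not keep the same direction over the numbers there. In such bulk RNA, fewer cells of a type and less RNA per cell cannot be told apart. Their part in the Cd81 difference was not tested.

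The title number marked a larger difference than the treatment. The first principal component, with 62.5% of the variance, separated the arrays numbered 1 from all others, and the labels do not say what the number stands for. Compared with numbers 2 and 3, with the treatment group in the model, the arrays numbered 1 differed in 3333 of 10042 genes (33.2%), of which 1109 were higher (11%) and 2224 lower (22.1%). Without vehicle array 1 the count was 1777 and without day 0 array 1 it was 1923. Of the 8 members, 3 passed, which is near the 33.2% of all genes: Cebpb and Cebpa were higher and Maf was lower.

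Cebpb was 0.79 ± 0.10 (SE) higher on the arrays numbered 1, or 1.73-fold, with a 95% interval of 0.56 to 1.03 (limma, adjusted p = 0.00107). The difference was 0.77 in the vehicle group, 0.76 with LCN2 from day 7 and 0.85 with LCN2 from day 0. These 3 values are close to each other. Cebpa was 0.33 ± 0.07 higher, or 1.26-fold, with an interval of 0.17 to 0.50 (adjusted p = 0.00943), and by 0.37, 0.28 and 0.35 in the same groups. This call ended without vehicle array 1 (0.32, adjusted p = 0.0655) and without day 0 array 1 (0.33, adjusted p = 0.0508). With each other array left out it was kept.

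Maf was lower on the arrays numbered 1 by 0.95 ± 0.14 on the log2 scale, or 1.93-fold (interval -1.26 to -0.64, adjusted p = 0.00169). The gap was -1.10 in the vehicle group and -1.22 with LCN2 from day 0, but -0.52 with LCN2 from day 7. Whether the gap differed between treatments was tested with interaction terms, a fit chosen after the data were seen, which leaves 3 residual degrees of freedom. Limma called 0 of 8 members and 0% of the 10042 genes (496 at an unadjusted p under 0.05, 4.94%), and Maf had an adjusted p of 0.999 (unadjusted 0.0654). With the variances moderated robustly and with a trend, 4 genes were called. The Maf and Cebpb calls held with each of the 9 arrays left out in turn, with ranges of -1.16 to -0.81 and 0.74 to 0.86.

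The other 5 members did not pass. Itgam was 0.13 higher (95% interval -0.035 to 0.30, adjusted p = 0.197) and Spi1 0.13 higher (-0.053 to 0.31, adjusted p = 0.246) on the arrays numbered 1, and both kept those arrays fully apart from the others. In all, 5 of 8 members did so, beside 35.4% of all genes. Cd81 was at -0.26 (-0.49 to -0.037, adjusted p = 0.0727), with -0.22, -0.077 and -0.49 in the vehicle, day 7 and day 0 groups. Adgre1 was at -0.057 (-0.28 to 0.16) and Csf1r at -0.00056 (-0.18 to 0.18), a value whose sign turned when the arrays were quantile normalized again (0.021). When the variances were moderated robustly and with a trend, 6 of 8 members were called in place of 3, as Spi1, Itgam and Cd81 passed too (adjusted p = 0.0349, 0.0372 and 0.0104).

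**Figure D3:**
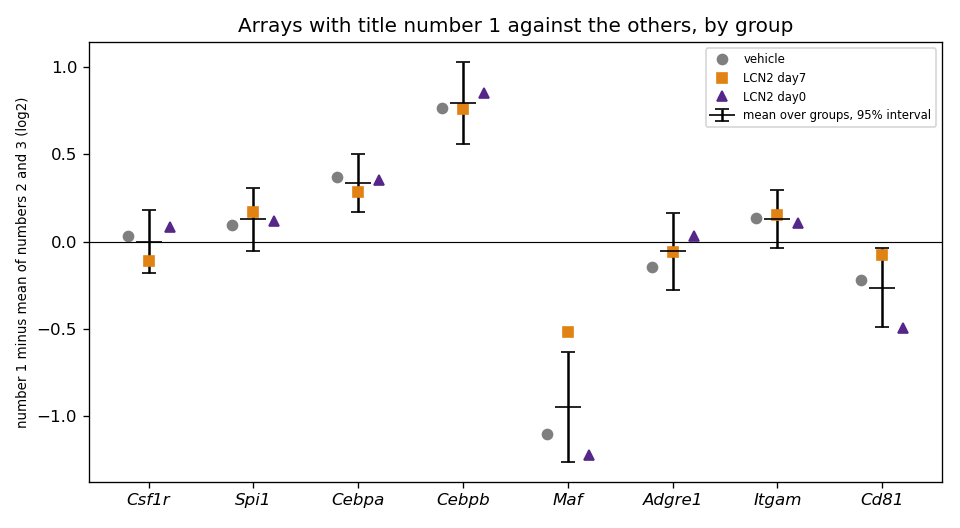
Level (log2) on the array numbered 1 minus the mean of the arrays numbered 2 and 3, within each treatment group (symbols) and as the mean over groups with its 95% interval (bars). Cebpb and Cebpa lie above 0 and Maf below 0 in all 3 groups, while Csf1r and Adgre1 scatter around 0.

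Numbers 2 and 3 were also set against each other, and limma called 0 of 8 members and 0% of all genes (310 genes at an unadjusted p under 0.05, 3.09%). Cebpa was 0.31 higher on number 2 (95% interval 0.12 to 0.51, adjusted p = 1), by 0.31, 0.29 and 0.34 in the vehicle, day 7 and day 0 groups, and its 3 arrays numbered 2 lay above all those numbered 3. Cebpb was 0.27 higher (-0.0018 to 0.54), with 0.014, 0.59 and 0.20 in the groups. These 2 members kept the numbers apart, where 8.54% of all genes did.

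The sums of squares over the 9 arrays split the variation of each member by title number and by treatment group. A large share for the title number did not always go with a pass for number 1, as Itgam shows. The title number held 96.7% of the variation of Cebpa, 93.2% of Cebpb, 83.6% of Maf, 83.1% of Itgam and 56.2% of Spi1, beside a median of 48.6% over all genes tested. For Adgre1 it held 19.4%, for Csf1r 31.7% and for Cd81 31.9%. The treatment group held 53.1% of the variation of Cd81, beside a median of 10.6% over all genes, and from 0.735% (Cebpb) to 22.4% (Adgre1) for the other members. In absolute terms Itgam and Spi1 varied little (SD 0.078 and 0.086 over 9 arrays), Cebpb and Maf much (0.43 and 0.53, above 93.6% and 96.5% of all genes).

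**Figure D4:**
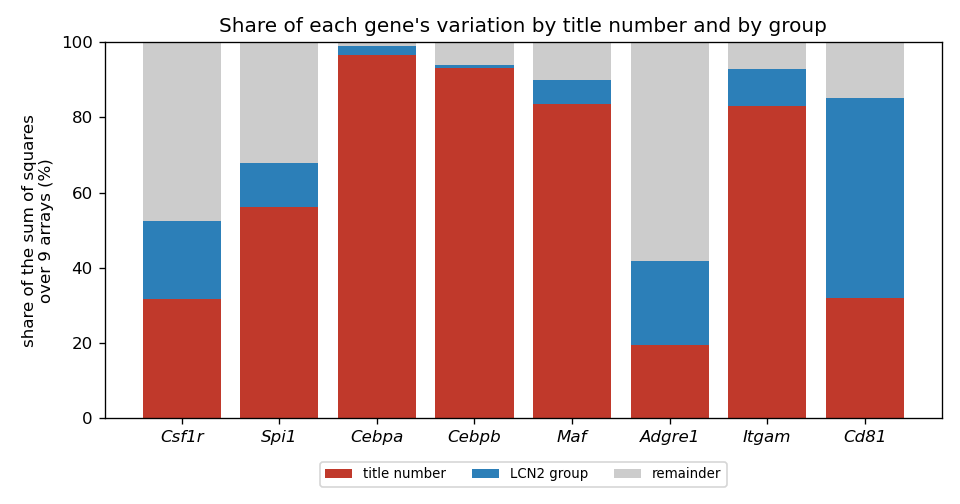
Share (%) of the sum of squares over the 9 arrays that lies between title numbers, between treatment groups and in the remainder, for each of the 8 genes. The title number takes 96.7% for Cebpa and 93.2% for Cebpb, whereas the treatment group takes 53.1% for Cd81.

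Other genes of the pathway also differed on the arrays numbered 1, in a comparison where 11% of all genes tested were higher and 22.1% lower. Csf1, which encodes the M-CSF ligand of Csf1r, was 0.90 ± 0.18 higher (adjusted p = 0.00656), while its receptor was not. Itgb2, which encodes the beta chain that pairs with CD11b, was 0.30 ± 0.08 higher (adjusted p = 0.0249). Both were singled out, after their values were seen, as partners of members. Of the 23 other lineage factors, 8 were higher and 5 lower, with the immediate early gene Egr1 at 1.64 and Pparg, the lipid-sensing nuclear receptor, at -0.61. Of 17 genes of CSF1 receptor signalling, 3 were higher, with Socs1, a feedback inhibitor of cytokine signalling, at 0.53, and 5 lower, with Plcg2, a phospholipase, at -0.55, so this list lay near those shares. The surface marker list had 7 of 17 higher and 4 lower, led by the endotoxin co-receptor gene Cd14 at 1.30 and the Fc receptor gene Fcgr1 at -0.98. Of 13 tetraspanins and lysosomal membrane proteins, 6 were higher, with Lamp1 at 0.47, and 1 lower, Tspan33 at -0.35.

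Markers of other cell states moved with the title number, again beside 11% of all genes higher and 22.1% lower. All 6 monocyte markers tested were lower (median -1.06), with the chemokine receptor gene Ccr2 at -2.39, and so were 17 of 19 cell cycle genes (median -0.90), with Mcm5, a replication helicase subunit, at -1.13. Of 10 neutrophil markers 7 were lower and 1 higher, with Ngp at -1.97 and Csf3r at 0.28. Of 8 osteoclast markers 5 were higher and 1 lower, with the acid phosphatase gene Acp5 at 2.17 and the fusion gene Ocstamp at -1.05. List means, in contrast to these counts, include the dim genes of a list. The mean level of the monocyte list was 6.37 to 6.62 on the arrays numbered 1 and 7.39 to 7.69 on the others, that of the cell cycle list 8.15 to 8.72 against 9.10 to 9.39, that of the neutrophil list 5.98 to 6.46 against 6.97 to 7.35, and that of the osteoclast list 8.29 to 8.70 against 7.43 to 8.003. Their part in the Cebpa, Cebpb and Maf differences was not tested.

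For each member the tested gene with the highest Pearson r over the 9 arrays was found. This is a description only, since the arrays share the title numbers. Each partner was also picked from 10042 genes tested over 9 arrays, so a high r can come from the picking alone. For Cebpb it was Rmc1 (r = 0.986, and 0.849 once the mean of each number was taken off), for Maf I830077J02Rik (0.995 and 0.970), and for Cebpa Coro1b (0.957 and 0.764). Gja1, which encodes a gap junction protein of the connexin family, was nearest to Cd81 (0.945 and 0.949). Pold4 was nearest to Csf1r (0.973 and 0.962), Srsf12 to Spi1 (0.973 and 0.982), Usp25 to Adgre1 (0.925 and 0.980) and Ccdc86 to Itgam (0.972 and 0.909). The likeness fell most for Cebpa and Cebpb once the number means were removed. Little of their variation remained after that step, as the title number held 96.7% and 93.2% of it.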

How the data were processed

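RNA was amplified with a kit for small inputs, labelled with biotin and hybridised, per the labels' protocols. The deposited values are log2 levels of 22203 probe sets on 9 arrays, which the authors made by RMA in the R package oligo (background correction, quantile normalization between arrays and summary per probe set), per the submitters' processing notes, which give no versions. Symbols came from the platform annotation (19572 probe sets with 1 symbol, 0 with several, 2631 with none), and 19572 matched RefSeq by Entrez identifier with 0 symbols changed. For each gene the probe set with the highest mean was kept. Genes with a mean under 5.66, the median over probe sets, were left out as dim, and 10042 remained. Precision is limited by how many arrays there are.

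Treatment groups were tested in limma 3.58.1 (R 4.3.3), with 1 mean per group over all 9 arrays, with Benjamini-Hochberg adjustment over all genes and a threshold of 0.05. Title numbers were compared in a fit with the group as covariate, and whether the gap of number 1 differs between groups in a fit with their interaction. The fits were tested on simulated data to which known differences were added. For day 0 against vehicle, the fit without the number called 0% of 1.25-fold, 9.2% of 1.5-fold and 54.8% of 2-fold differences. With the title number as a block these shares were 3.2%, 44% and 82.8%. Small differences between treatment groups could thus seldom be called. For number 1 against the others, simulated with the number shifts taken off, the shares were 11.2%, 58.6% and 89%. Differences were added to a small part of the genes there, whereas 33.2% of all genes tested passed in the real comparison. These last shares thus need not hold for it. Deviations from the group means correlated at 0.16 to 0.82 over the 9 pairs of arrays with the same title number, which meets the criterion for pairing (every pair above 0.1), though numbers 2 and 3 correlated across groups too (0.20 to 0.69). The intervals for treatment come from the fit without the number unless the block is named. The fit with the number as a block was an alternative, as were other filters, scalings, variance moderation, probe-set averaging and leaving out arrays. The members and lists were chosen with earlier results of these data known. Named were all members and the gene most correlated with each. For some lists and comparisons the genes with the smallest p in a direction were named as well. Those of the other lists and comparisons were left out, whether or not they passed. The TATA box was added to the motifs after the promoters were seen.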

Additional observations from a re-analysis of the deposited data

How the results depend on the processing

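The replicate block, with the title number as block, called 0 genes in each of the 3 LCN2 comparisons, as did every other alternative run, and changed no call of a member. For title number 1 against the others, the count of 3333 genes was 2708 to 3699 with other filters, scalings, moderation, probe-set averages or no group term, and 1777 to 3612 with an array left out. For the interaction of that gap with treatment, the count of 0 became 4 with robust, trended moderation and was 0 under the other alternatives that could be fitted. It cannot be fitted without an array numbered 1. Some uncalled differences turned sign. With arrays centred on their medians, these were Csf1r for day 7 against vehicle (0.0045), Adgre1 for day 0 against vehicle (-0.010), and Cebpb (-0.022) and Itgam (-0.024) for day 0 against day 7. With quantile normalization repeated, they were Adgre1 for day 0 against vehicle (-0.0084) and Csf1r for number 1 (0.021). Leaving out all arrays numbered 1, an alternative chosen after seeing the data, gave 0 called genes. It turned Csf1r (0.026) and Maf (-0.068) for day 7, Adgre1 (-0.059) for day 0, and Cebpb (-0.013) for day 0 against day 7, while Cd81 for day 0 against vehicle was at 0.50 (adjusted p = 0.933). With each array left out in turn, day 7 against vehicle ran from -0.075 to 0.015 for Csf1r, -0.096 to 0.019 for Spi1, -0.093 to 0.17 for Cebpa, -0.33 to 0.19 for Cebpb, -0.24 to 0.35 for Maf and -0.011 to 0.086 for Itgam. Day 0 against vehicle ran from -0.022 to 0.060 for Spi1, -0.17 to 0.11 for Cebpa, -0.35 to 0.19 for Cebpb, -0.065 to 0.71 for Maf, -0.081 to 0.093 for Adgre1 and 0.30 to 0.58 for Cd81. Day 0 against day 7 ran from -0.083 to 0.0066 for Csf1r, -0.20 to 0.066 for Cebpa, -0.27 to 0.27 for Cebpb, -0.028 to 0.58 for Maf and -0.032 to 0.066 for Itgam. Number 1 against the others ran from -0.042 to 0.056 for Csf1r, and number 2 against 3 from -0.036 to 0.080 for Spi1, -0.31 to 0.0037 for Maf and -0.0075 to 0.20 for Adgre1. The cause of these turns was not tested.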
